A study of Mus musculus with 9 samples.

Results

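miR-221 and miR-222 are a pair of microRNAs made from neighbouring hairpins on the mouse X chromosome, and they were followed here through their 4 mature arms, miR-221-3p, miR-221-5p, miR-222-3p and miR-222-5p. The arms were chosen by name, as the rows of the deposited tables with exactly these names, and they are 4 of 1607 known mouse miRNA names counted in at least 1 library. All 4 were counted in each of the 9 libraries and all 4 passed the filter on low counts that left 955 miRNAs for testing. The most abundant of them was miR-222-3p. With totals scaled to align the bulk of miRNAs between libraries, its mean in DROSHA knockout libraries was 53.2% of the control mean. On this scale it was 74.0% in libraries with a mutant DROSHA transgene. As an unscaled share of miRNA reads, the mean was 61.2% of the control mean in the knockout and 86.1% with the transgene. As a share of all counted reads, it was 57.2% in the knockout and 82.5% with the transgene. These differences did not pass the test across all miRNAs.

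Small RNA was read from whole mouse kidneys of embryonic day 16.5. There were 3 libraries with a DROSHA-E1147K transgene, 3 from DROSHA knockout kidneys and 3 wild-type controls, which serve both comparisons. In the nucleus the RNase III enzyme DROSHA cuts hairpin precursors out of primary miRNA transcripts, and E1147K is an amino acid change in an RNase III domain of this enzyme. The series asks how loss or mutation of DROSHA affects the developing kidney and whether it leads to Wilms tumor, a childhood kidney cancer. The labels do not give the mouse lines, the cells in which Drosha was changed, the promoter of the transgene, the sex of the embryos, or whether replicates are separate animals. The p-values therefore only set group differences against the scatter between these libraries, and that scatter may be technical. Small RNA reads do not measure Drosha mRNA, and the genotypes stand as labelled.

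In human cells both 3p arms repress CDKN1B (p27) and CDKN1C (p57), inhibitors of cyclin-dependent kinases that hold cells out of the division cycle, and KIT, the receptor of stem cell factor. They are abundant in endothelium, vascular smooth muscle and blood progenitors, and they are raised in many human tumours. In the kidney p57 is known as a marker of maturing podocytes, the filtering cells of the glomerulus.

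The sequences show what the pair shares, and are credited to RefSeq on GRCm38.p6, the assembly that mm10 stands for. Capitals mark the seed, bases 2 to 8, through which a miRNA pairs with its targets.
mmu-miR-221-3p: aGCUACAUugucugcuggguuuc
mmu-miR-222-3p: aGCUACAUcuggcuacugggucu
mmu-miR-221-5p: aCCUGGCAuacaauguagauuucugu
mmu-miR-1928: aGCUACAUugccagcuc
The 3p arms of miR-221 and miR-222 are identical over their first 8 bases and at 11 of 23 positions when laid side by side without gaps, so the seed is the same and the 3′ parts differ enough for reads to be assigned to either name. miR-1928 of chromosome 1 is shown because it is the only other mature miRNA in the table with this seed, 3 in all. No reads were counted under its name in any of the 9 libraries. miR-221-5p carries an unrelated seed.

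In the hairpins below, capitals mark the 3p arm, the arm that made up nearly all reads counted under the mature names of either hairpin.
Mir221: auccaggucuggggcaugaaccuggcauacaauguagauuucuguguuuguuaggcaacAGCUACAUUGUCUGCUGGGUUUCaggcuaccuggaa
Mir222: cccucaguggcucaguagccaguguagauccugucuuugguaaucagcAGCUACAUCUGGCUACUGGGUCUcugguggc
Mir221 lies at chrX:19146294-19146388 and Mir222 at chrX:19146893-19146971 (GRCm38.p6), both on the minus strand with 504 bases between them, so that Mir222 comes before Mir221 in the direction of transcription. GENCODE vM21 gives both the same coordinates, and there no other gene overlaps either hairpin. The nearest GENCODE gene upstream on the same strand is Gm14636, a noncoding transcript at chrX:19156981-19167241. The pair stands alone among miRNA genes in the RefSeq table. The next hairpin toward lower coordinates is Mir1198, 11339072 bases away, and the next toward higher coordinates is Mir5617, 1716154 bases away.

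Depth was ample for the 3p arms and thin for the 5p arms. Each library held 24350500 to 34896599 reads of known miRNAs. Levels are given as counts per 1000000 miRNA reads (CPM), with each library's total scaled by TMM, a factor that aligns the bulk of miRNAs between libraries. miR-222-3p was counted with 10623 to 33652 reads per library, miR-221-3p with 4895 to 9980, miR-221-5p with 71 to 373 and miR-222-5p with 61 to 144. By its reads miR-222-3p ranked 100th to 117th among the miRNAs of the transgene libraries, 96th to 178th in the knockout libraries and 87th to 92nd in controls.

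miR-222-3p had a lower mean in both DROSHA groups on this scale. Its level was 873, 722 and 981 CPM in transgene libraries 1 to 3, 511, 958 and 384 CPM in knockout libraries 1 to 3, and 1057, 1186 and 1238 CPM in controls 1 to 3. Every transgene and every knockout library lay below every control, and knockouts 1 and 3 lay far below knockout 2, which was among the transgene libraries. The group means were 859 ± 130 CPM with the transgene, 618 ± 301 CPM in the knockout and 1160 ± 93.1 CPM in controls (SD, n = 3 each). These are whole kidneys, in which fewer cells of a type and less miRNA per cell cannot be told apart.

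miR-221-3p, the partner with the same seed, differed less. It stood at 235, 257 and 271 CPM in transgene libraries 1 to 3, 337, 320 and 177 CPM in knockout libraries 1 to 3, and 306, 343 and 286 CPM in controls 1 to 3. All 3 transgene libraries were below the lowest control, whereas knockouts 1 and 2 lay within the control range and knockout 3 was the lowest library of all. The means were 254 ± 18.3 CPM with the transgene, 278 ± 87.7 CPM in the knockout and 312 ± 28.7 CPM in controls (SD, n = 3 each).

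The 5p arms, the strands that are mostly discarded after a hairpin is cut, followed with few reads. miR-221-5p was at 7.79, 5.30 and 7.40 CPM with the transgene, at 8.17, 9.12 and 2.57 CPM in the knockout and at 11.7, 8.84 and 9.35 CPM in controls. miR-222-5p was at 4.24, 3.23 and 3.61 CPM with the transgene, at 3.44, 4.80 and 2.21 CPM in the knockout and at 4.52, 5.04 and 4.67 CPM in controls. For both arms the transgene libraries lay below all controls, knockout 2 lay within the control range, and knockout 3 was the lowest of the 9 libraries.

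**Figure D1:**
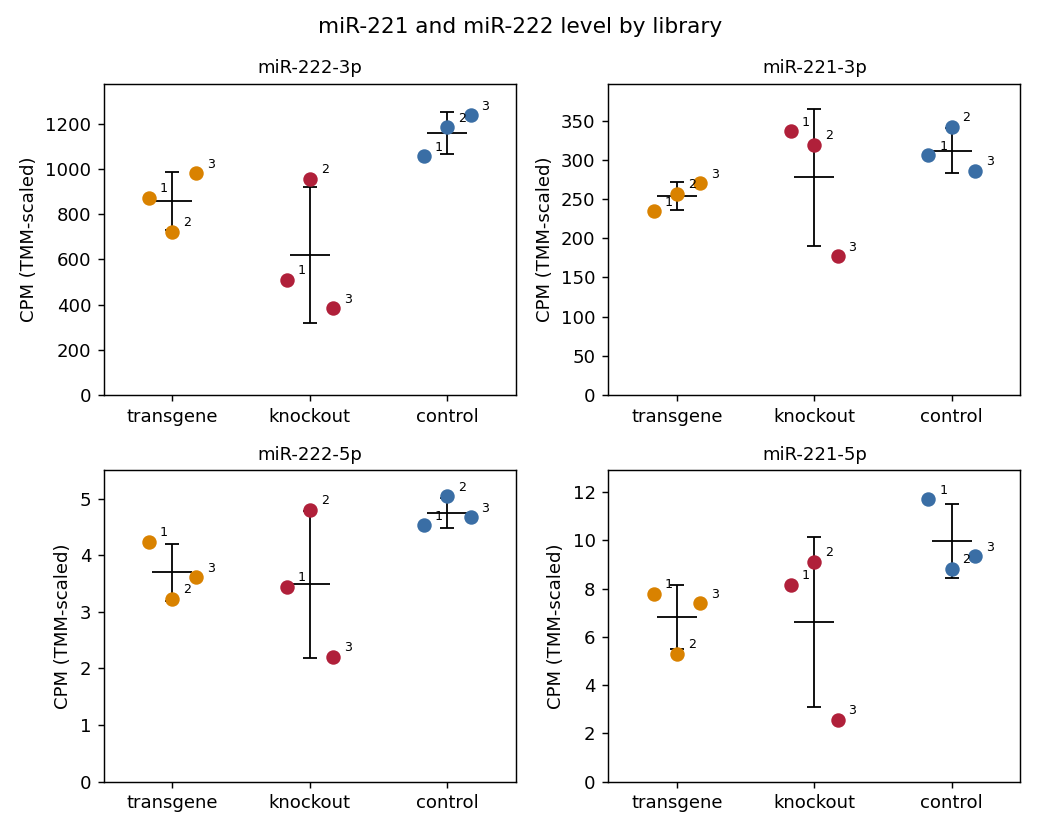
Level of each arm (vertical axis, TMM-scaled CPM, starting at 0) in the transgene, knockout and control libraries. Points are libraries numbered by replicate, and the bar and whiskers are the mean and SD of 3. miR-222-3p is between 722 and 981 CPM with the transgene, between 384 and 958 CPM in the knockout and between 1057 and 1238 CPM in controls, and knockout 3 is the lowest library for miR-222-3p, miR-222-5p, miR-221-3p and miR-221-5p.

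Some of these separations depended on the scaling. On TMM-scaled CPM all 4 arms were lower in every transgene library than in every control, beside 12% of the 955 tested miRNAs, and 1 of 4, miR-222-3p, was lower in every knockout library, beside 15.6%. As CPM without TMM factors, 1 of 4 was lower in every transgene library (miR-222-5p), beside 4.19% of the tested miRNAs, and 0 of 4 in every knockout library, beside 8.27%, where miR-222-3p was at 967 in knockout 2 against 964 in control 1. As a share of all counted reads, other small RNAs included, miR-222-5p lay lower in every transgene library than in every control, beside 6.28% of the tested miRNAs, and miR-222-3p lay lower in every knockout library, beside 11.1%. The median log2 fold change of all miRNAs was 0.18 for the transgene with unscaled totals and -0.04 with TMM, and for the knockout it was 0.19 with unscaled totals and -0.03 with TMM. Relative to that median miR-222-3p was at -0.40 for the transgene under either scaling, and for the knockout at -0.90 with unscaled totals and -0.88 with TMM. A change of scaling moves the fold changes of all miRNAs by about the same amount, so this agreement follows from subtracting the median. It does not show how firm the difference is.

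The test was edgeR's quasi-likelihood test over all 955 miRNAs, its p-values adjusted by Benjamini and Hochberg's method and read against 0.05. In knockout against control kidneys miR-222-3p had a log2 fold change of -0.91 (SE 0.33, 95% interval -1.66 to -0.16), with an unadjusted p of 0.0226 and an adjusted p of 0.160 (edgeR). On TMM-scaled CPM it was lower in 3 of 3 knockout libraries than in all controls, as were 15.6% of all tested miRNAs. As CPM without TMM factors its groups overlapped. All 4 arms had negative log2 fold changes, as had 51.1% of all tested miRNAs. miR-222-3p was the only arm of the 4 with an unadjusted p under 0.05 in this fit, where 25.7% of all tested miRNAs had one and 10.1% had one with a lower level. After adjustment edgeR called 0 of 955 miRNAs (0%) in this comparison, while DESeq2 called 109, and miR-222-3p passed in neither (DESeq2 adjusted p = 0.116). Over 17 alternative settings its adjusted p (edgeR or DESeq2) was between 0.108 and 0.382, and its unadjusted p was above 0.05 in 8 of them, such as 0.0575 with unscaled totals and 0.101 without knockout 3. Its fold change was -1.41 without knockout 2, -0.71 without knockout 1 and -0.56 without knockout 3.

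The other arms had smaller or less certain differences in the knockout. The log2 fold change of miR-221-3p was -0.17 (95% interval -0.78 to 0.45, edgeR adjusted p = 0.736), and it turned to 0.17 without knockout 3 and to 0.057 with unscaled totals. That of miR-221-5p was -0.59 (-1.59 to 0.41, edgeR adjusted p = 0.447), or -0.37 with unscaled totals, -0.11 without knockout 3 and -0.91 without knockout 2. That of miR-222-5p was -0.45 (-1.16 to 0.27, edgeR adjusted p = 0.416), or -0.24 with unscaled totals, -0.10 without knockout 3 and -0.77 without knockout 2, where its unadjusted p was 0.0441 (edgeR adjusted p = 0.173). Among all tested miRNAs 9.21% had a lower fold change than miR-222-3p, 42.1% a lower one than miR-221-3p, 18.2% a lower one than miR-221-5p and 24.6% a lower one than miR-222-5p.

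In transgene against control kidneys all 4 arms had negative log2 fold changes, where 53.3% of all tested miRNAs had one. miR-222-3p was at -0.43 (SE 0.33, 95% interval -1.18 to 0.31, edgeR adjusted p = 0.640) and miR-221-3p at -0.30 (SE 0.27, -0.91 to 0.32, edgeR adjusted p = 0.723). miR-221-5p was at -0.55 (-1.55 to 0.46) and miR-222-5p at -0.36 (-1.08 to 0.35). edgeR called 0 of 955 miRNAs (0%) with 84 (8.8%) at an unadjusted p under 0.05, DESeq2 called 2, and the lowest unadjusted p of the 4 arms was 0.218, for miR-222-3p. The 4 directions held in all 17 alternatives, but the sizes did not. With unscaled totals the log2 fold change was -0.22 for miR-222-3p, -0.066 for miR-221-3p, -0.34 for miR-221-5p and -0.15 for miR-222-5p. Without transgene 2 it was -0.25 for miR-222-3p, -0.32 for miR-221-5p and -0.20 for miR-222-5p.

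Both DROSHA groups were set against the same 3 controls, so the difference between them was tested directly. Between knockout and transgene kidneys miR-222-3p had a log2 fold change of -0.48 (SE 0.33, 95% interval -1.22 to 0.27, edgeR adjusted p = 0.707), with knockouts 1 and 3 below all transgene libraries and knockout 2 within their range. It was -0.93 without knockout 2 and -0.19 without knockout 3. miR-221-3p was at 0.13 (-0.49 to 0.75), miR-221-5p at -0.04 (-1.04 to 0.95) and miR-222-5p at -0.08 (-0.80 to 0.63), and each of these changed sign when 1 library was left out, miR-221-3p to -0.038 without knockout 1, miR-221-5p to 0.37 and miR-222-5p to 0.19 without knockout 3. edgeR called 1 of 955 miRNAs (0.105%) in this comparison, miR-3067-5p, which is named because it was the only call, after its values were seen.

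**Figure D2:**
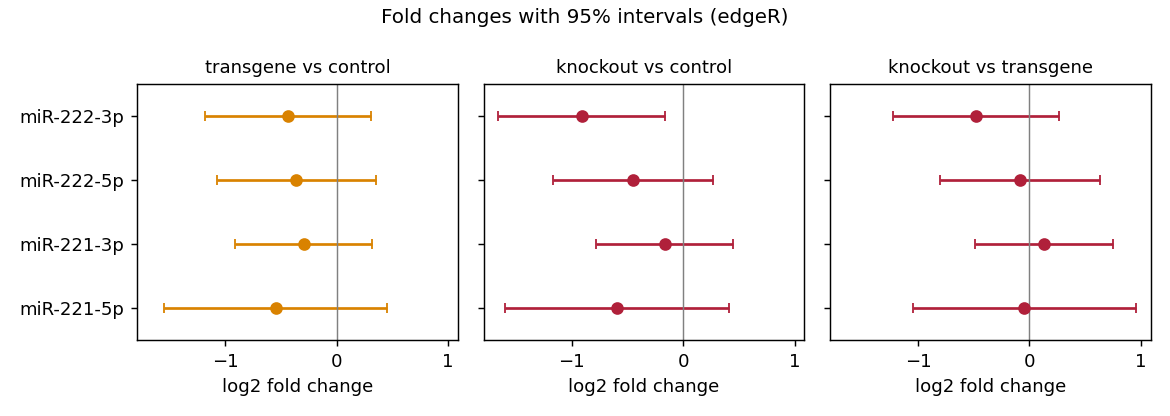
Log2 fold changes of the 4 arms (horizontal axis) in the comparisons of transgene with control, knockout with control and knockout with transgene. Points are edgeR estimates and bars their 95% intervals. The interval of miR-222-3p in knockout against control, -1.66 to -0.16, is the only one of the 12 that does not include 0, and no adjusted p passed 0.05.

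The ratio of miR-222-3p to miR-221-3p reads within a library does not depend on scaling, and it was lower in every knockout library than in every control. How many other pairs of miRNAs separate in this way was not counted. Among single miRNAs, 15.6% of those tested were lower in every knockout library than in every control on TMM-scaled CPM. miR-222-3p had 3.72, 2.81 and 3.62 reads for each read of miR-221-3p in transgene libraries 1 to 3, 1.52, 3.0 and 2.17 in knockout libraries 1 to 3, and 3.45, 3.46 and 4.33 in controls 1 to 3. All 3 knockout libraries lay below all controls, and knockout 2 lay above the lowest transgene library. Since reads of different sequences are captured with different efficiency, the ratio is compared between libraries and is not a ratio of molecules. On the log2 scale its mean was 1.10 in the knockout and 1.90 in controls, a difference of -0.80 (exact two-sided permutation p = 0.1, the smallest that 3 against 3 libraries allow, or 0.3 adjusted over 9 ratio tests). Knockout minus transgene was -0.65 (exact permutation p = 0.2, adjusted 0.36) and transgene minus control was -0.15 (exact permutation p = 0.6, adjusted 0.6). Knockout minus transgene was -0.40 without knockout 1 and -0.89 without knockout 2. Leaving out transgene 2 gave -0.02 for transgene minus control, leaving out control 3 gave -0.04, and leaving out transgene 1 gave -0.22.

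Counting error is small beside these differences. miR-222-3p made up 60.2% of both 3p arms in knockout 1 (exact binomial 95% interval 59.6% to 60.9%), 75.0% in knockout 2 (74.5% to 75.5%) and 68.5% in knockout 3 (67.7% to 69.2%). In controls it made up 77.5% (77.1% to 77.9%), 77.6% (77.2% to 78.0%) and 81.2% (80.8% to 81.6%). The reads carry no molecular identifiers, so these intervals cover counting error only.

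The balance of the 2 arms of each hairpin was compared in the same way. For miR-222 there were 206, 223 and 272 reads of the 3p arm for each of the 5p arm in transgene libraries, 148, 199 and 174 in knockout libraries, and 234, 235 and 265 in controls. The 3 knockout libraries were the 3 lowest of the 9. The log2 ratio differed by -0.51 between knockout and control and by -0.43 between knockout and transgene (exact permutation p = 0.1 each, adjusted 0.3 each). Among 306 hairpins with both arms tested, 6.21% had this ratio lower in every knockout library than in every control, and 5.88% had it lower in every knockout than in every transgene library. The median difference over the 306 was 0.12 between knockout and control.

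For miR-221 the ratio went the other way. There were 30.1, 48.5 and 36.6 reads of the 3p arm for each of the 5p arm with the transgene, 41.2, 35.1 and 68.9 in the knockout, and 26.1, 38.8 and 30.6 in controls. The groups overlapped. The log2 ratio was 0.56 higher in the knockout than in controls (exact permutation p = 0.2, adjusted 0.36) and 0.26 higher with the transgene (exact permutation p = 0.5, adjusted 0.6). The knockout difference was 0.27 without knockout 3, whose 5p arm had 71 reads, and the transgene difference was 0.078 without transgene 2 and 0.42 without transgene 1.

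**Figure D3:**
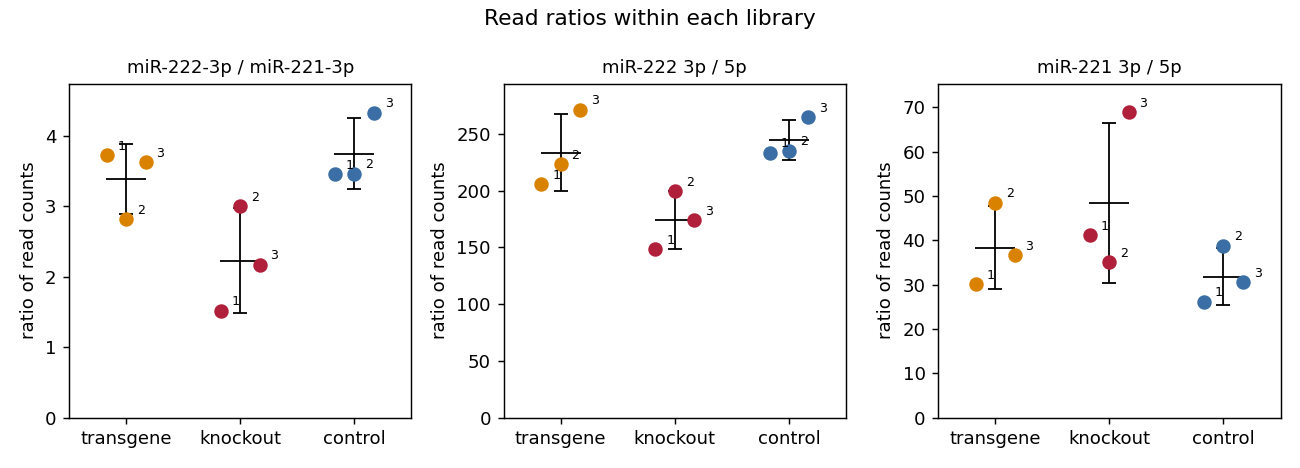
Ratios of read counts within each library (vertical axes, from 0) in the transgene, knockout and control groups, with means and SD of 3. The ratio of miR-222-3p to miR-221-3p is 1.52 to 3.0 in the knockout and 3.45 to 4.33 in controls, the 3p to 5p ratio of miR-222 is 148 to 199 in the knockout and 234 to 265 in controls, and that of miR-221 overlaps between groups.

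Together the 4 arms made up 0.119% ± 0.0209 of miRNA reads in transgene libraries, 0.0948% ± 0.0360 in knockout libraries and 0.135% ± 0.00833 in controls (SD, n = 3 each). The lowest library was knockout 3 at 0.0584% (exact binomial 95% interval 0.0575% to 0.0593%), and the highest was control 3 at 0.142% (0.141% to 0.144%). The deposited tables also hold a row for the Rfam family mir-221, classed as a precursor, whose reads were counted apart from the mature names. It had 151, 167 and 201 reads per 1000000 counted reads with the transgene, 191, 190 and 114 in the knockout, and 183, 240 and 226 in controls. Its reads came to 26.7% of the summed mature reads in knockout 1 and 25.5% in knockout 3, against 19.0% in knockout 2, 17.9% to 19.5% with the transgene and 17.7% to 21.8% in controls. How a read was given to the family row or to a mature name is not stated in these sources.

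Spread between replicates was widest in the knockout group for all 4 arms. The SD of log2 CPM of miR-222-3p was 0.22 with the transgene, 0.67 in the knockout and 0.12 in controls, and that of miR-221-3p was 0.10 with the transgene, 0.51 in the knockout and 0.13 in controls. Pooled over groups, the SD was 0.42 for miR-222-3p and 0.31 for miR-221-3p, where the median of the 265 miRNAs with a mean of at least 100 CPM was 0.38. The miR-222 pair of arms had a Pearson r of 0.90 over the 9 libraries on log2 CPM and the miR-221 pair 0.85. Across the hairpins r was 0.58 for the 3p arms and 0.915 for the 5p arms. It was 0.793 for miR-221-5p with miR-222-3p and 0.768 for miR-221-3p with miR-222-5p. These correlations are descriptions, since all values of a library share its depth and its scaling factor.

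The miRNAs most like the 3p arms were found by Pearson r over the 9 libraries among 463 miRNAs with a mean of at least 10 CPM. For miR-222-3p they were miR-27a-5p (r = 0.92), let-7i-5p (0.90), miR-30a-3p (0.90), miR-23b-5p (0.89) and miR-20b-5p (0.88). miR-30a-3p was at 572 ± 126 CPM with the transgene, 358 ± 72.9 CPM in the knockout and 758 ± 30.6 CPM in controls, and let-7i-5p at 29039 ± 2479 CPM with the transgene, 25967 ± 4805 CPM in the knockout and 39684 ± 1317 CPM in controls (SD, n = 3 each). For miR-221-3p they were miR-423-3p (r = 0.94), miR-181c-3p (0.91), miR-196b-3p (0.88), miR-212-3p (0.86) and miR-5099 (0.855).

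Other miRNAs shown in human cells to target inhibitors of the same Cip/Kip group (p21, p27 and p57) were taken as a list of 7, which are miR-17-5p, miR-20a-5p, miR-20b-5p, miR-93-5p, miR-106a-5p, miR-106b-5p and miR-25-3p. None passed after adjustment in edgeR in any comparison. All 7 had negative log2 fold changes in the knockout, beside 51.1% of all tested miRNAs, with a median of -0.68 beside -0.03 over all 955. An unadjusted p under 0.05 was seen for 5 of the 7, where 10.1% of all tested miRNAs had one with a lower level. Several of the 7 come from shared clusters, so they are not 7 separate observations. miR-20b-5p is also among the 5 miRNAs most like miR-222-3p. Without knockout 3 all 7 were still negative, with a median of -0.46 and 2 at an unadjusted p under 0.05, as many as with unscaled totals (median -0.45). In transgene against control all 7 were negative with TMM, beside 53.3% of all tested miRNAs, with a median of -0.30 beside -0.04. With unscaled totals 4 of the 7 were negative, with a median of -0.078. The transgene median was -0.19 without transgene 2. The most abundant, miR-93-5p from an intron of Mcm7, was at 7250 ± 75.1 CPM with the transgene, 5931 ± 1369 CPM in the knockout and 10513 ± 2113 CPM in controls (SD, n = 3 each). Its log2 fold change was -0.54 (SE 0.22) for the transgene and -0.83 (SE 0.22, edgeR adjusted p = 0.108) for the knockout. The summed level of the list was lowest in knockout 3, at 9058 CPM, as for miR-222-3p. Knockouts 1 and 2 had similar sums, at 12412 and 12619 CPM, but 511 and 958 CPM of miR-222-3p.

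Other miRNAs of the X chromosome lay on both sides of 0. Of all tested miRNAs 53.3% had a negative log2 fold change with the transgene and 51.1% in the knockout. Of 76 other tested miRNAs whose loci all lie on X, 38 had negative and 38 positive log2 fold changes with the transgene (median 0.0024). In the knockout 36 of the 76 were negative and 40 positive (median 0.12). With unscaled totals 19 were negative and 57 positive with the transgene (median 0.23), and 25 were negative and 51 positive in the knockout (median 0.33). The knockout median was -0.0023 without knockout 3, and the transgene median was between -0.14 (without transgene 1) and 0.088 (without transgene 2) with 1 library left out. None passed after adjustment in edgeR. In the knockout 2 were higher and 6 lower at an unadjusted p under 0.05, where 10.1% of all tested miRNAs were lower. At that p 8 were higher and 2 lower with unscaled totals, and 1 was higher and 1 lower without knockout 3. The most abundant of them, miR-322-5p, was at 18364 ± 905 CPM with the transgene, 19684 ± 2558 CPM in the knockout and 29654 ± 940 CPM in controls (SD, n = 3 each). The next, miR-652-3p, was at 17770 ± 1143 CPM with the transgene, 19679 ± 1343 CPM in the knockout and 20503 ± 1748 CPM in controls.

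Levels of marker miRNAs are given beside miR-222-3p, since cell types of the kidney differ in their miRNAs. The 11 tubule and ureteric epithelium miRNAs, all of them detected, summed to 25725 to 37058 CPM with the transgene, 31511, 33204 and 14861 CPM in knockouts 1 to 3, and 39628 to 44567 CPM in controls. Of the 11, 10 had negative log2 fold changes with the transgene (median -0.48), beside 53.3% of all tested miRNAs. In the knockout 10 had them (median -0.79), beside 51.1%, and the median was -0.43 without knockout 3. At an unadjusted p under 0.05, 2 were lower with the transgene, where 8.8% of all tested miRNAs had such a p in either direction. In the knockout 4 were lower at that p, beside 10.1% of all tested miRNAs. With unscaled totals 9 of 11 were negative in either comparison, with 0 at that p and a median of -0.26 with the transgene, and 2 at that p and a median of -0.57 in the knockout. The transgene median was -0.31 without transgene 3. The 4 endothelial names, led by miR-126a-3p, summed to 36663 to 45599 CPM with the transgene, 34557 to 48795 CPM in the knockout and 45283 to 56517 CPM in controls, with median log2 fold changes of 0.06 with the transgene and -0.07 in the knockout. These medians were 0.28 with the transgene and 0.14 in the knockout with unscaled totals, and with 1 library left out they lay between -0.10 and 0.18 with the transgene and between -0.16 and 0.022 in the knockout. With TMM both medians fell between the values of miR-126b-3p and miR-126b-5p, which were at only 1.20 to 3.03 CPM. The log2 fold change of miR-126a-3p was -0.26 (SE 0.18) with the transgene and -0.20 (SE 0.18) in the knockout. That of miR-126a-5p was 0.16 (SE 0.25) with the transgene and 0.06 (SE 0.25) in the knockout. miR-126a-3p itself was at 44992, 47592 and 32475 CPM in knockouts 1 to 3, beside 511, 958 and 384 CPM of miR-222-3p. In controls 1 to 3 miR-126a-3p was at 43764 to 54563 CPM. Knockout 3 was the lowest library for both miRNAs. The 8 stroma and smooth muscle names summed to 42216 to 62255 CPM with the transgene, 41205 to 64210 CPM in the knockout and 39056 to 48774 CPM in controls, with median log2 fold changes of 0.17 with the transgene and 0.41 in the knockout, or 0.39 with the transgene and 0.63 in the knockout with unscaled totals. The transgene median was 0.0067 without transgene 3, and the knockout median was 0.27 without control 1. Of the 8, 4 were negative with the transgene, beside 53.3% of all tested miRNAs, and 1 in the knockout, beside 51.1%. The negative 1 was the most abundant, miR-143-3p, at 25961 CPM with the transgene, 28806 CPM in the knockout and 32692 CPM in controls (means). miR-199a-3p was at 27129 CPM in transgene 1, 18217 CPM in transgene 2 and 27484 CPM in knockout 1. In the other libraries it was at 1642 to 5969 CPM.

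The summed levels of striated muscle, erythroid and leukocyte miRNAs were highest in knockout 3. Single names differed, and miR-486a-5p of the erythroid list was highest in knockout 1 and miR-155-5p of the leukocyte list lowest in knockout 3. Striated muscle miRNAs, of which 6 of 7 passed the filter on low counts, summed to 468 to 1641 CPM with the transgene, to 2073, 458 and 10513 CPM in knockouts 1 to 3, and to 220.8 to 1254 CPM in controls. Their median log2 fold change was 0.71 with the transgene and 2.92 in the knockout, or 1.11 there without knockout 3, and the transgene median was 0.34 without control 3 and 1.63 without control 1. Erythroid names, 5 of 5, summed to 27247 to 80064 CPM with the transgene, 71727, 73077 and 112301 CPM in knockouts 1 to 3 and 21414 to 52333 CPM in controls (median log2 fold change 0.69 with the transgene and 1.16 in the knockout). Their transgene median was 0.44 without control 3 and 1.09 without control 2. Leukocyte names, 6 of 6, summed to 569 to 1303 CPM with the transgene, 565 to 1426 CPM in the knockout and 483 to 888 CPM in controls (median 0.13 with the transgene and 0.45 in the knockout, or 0.37 with the transgene and 0.66 in the knockout with unscaled totals). With 1 library left out their median lay between -0.17 and 0.37 with the transgene and between 0.25 and 0.65 in the knockout. Neural names, 5 of 5, summed to 1912 to 3381 CPM with the transgene, 2116 to 2278 CPM in the knockout and 2042 to 3454 CPM in controls. Their median was -0.07 with the transgene, or 0.11 with unscaled totals, -0.23 without control 3 and 0.25 without transgene 3, and 0.24 in the knockout, or 0.45 with unscaled totals and -0.23 without knockout 3. The 3 endocrine and liver names summed to 4925 to 21598 CPM with the transgene, 1107 to 11179 CPM in the knockout and 1180 to 12196 CPM in controls (median 3.41 with the transgene and -0.65 in the knockout). These medians depended on single libraries and were 1.27 with the transgene without transgene 3, and -1.87 in the knockout without knockout 3 or 1.68 there without control 3. The part of these markers in the level of miR-222-3p was not tested. None of the markers in the 8 lists passed after adjustment in edgeR in any comparison, and no listed marker was at 0 in all libraries.

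**Figure D4:**
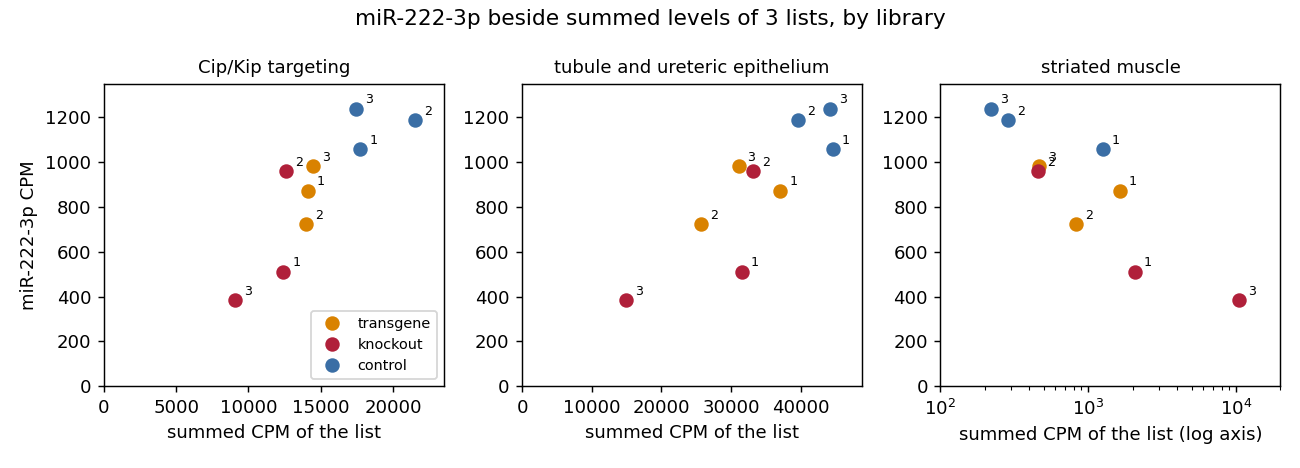
miR-222-3p level (vertical axis, CPM) against the summed CPM of the Cip/Kip targeting miRNAs, the tubule and ureteric epithelium miRNAs and the striated muscle miRNAs (horizontal axes, the last on a log scale). Points are libraries numbered by replicate and coloured by group. Knockout 3, with 384 CPM of miR-222-3p, has the lowest sums of Cip/Kip targeting (9058 CPM) and tubule (14861 CPM) miRNAs and the highest of striated muscle (10513 CPM). Knockout 1, with 511 CPM of miR-222-3p, has 12412 CPM of Cip/Kip targeting, 31511 CPM of tubule and 2073 CPM of striated muscle miRNAs. Knockout 2, with 958 CPM of miR-222-3p, has 12619, 33204 and 458 CPM of these lists. Control 1, with 1057 CPM of miR-222-3p, has 1254 CPM of striated muscle miRNAs.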

How the data were processed

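Small RNA libraries were made by the BGI protocol from Trizol RNA of whole frozen kidneys, per the labels' protocols. Per the submitters' processing notes the tools were CASAVA 1.8 and Bowtie2 and the build mm10. The deposited counts are whole reads per small RNA name, and they sum to the total in each file header. The deposited TPM is, per the file headers, the count per 1000000 of that total, equal within 0.005, and was not tested.

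Reads of known mouse miRNAs, mature and hairpin rows of a name added, were fitted with edgeR 4.0.16 in R 4.3.3 (TMM factors 0.882 to 1.13, filterByExpr, group over all 9 libraries, quasi-likelihood F test). The members had 0 hairpin rows. SEs are the log2 fold change over the root of F, and 95% intervals use its degrees of freedom. Ratios used a pseudocount of 1 and exact permutation tests (scipy 1.17.1). Alternatives were DESeq2 1.42.0, other scalings, no filter, fewer libraries and a replicate block. The text names the members, the 5 miRNAs most like each 3p arm, the seed family, the nearest hairpins and up to 4 abundant members of each list. List medians under other scalings and without each library were added after the data were seen. The members and lists were chosen with earlier results of these data known.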

Additional observations from a re-analysis of the deposited data

How the results depend on the processing

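Of 204 alternative member fold changes, 196 kept their direction and their side of the threshold and 8 reversed. Against controls, miR-221-3p in the knockout was 0.057 with unscaled totals and -0.30 to 0.17 with 1 library left out. Between knockout and transgene, leaving out 1 library gave -0.038 to 0.40 for miR-221-3p, -0.34 to 0.37 for miR-221-5p and -0.38 to 0.19 for miR-222-5p. Of 81 alternative read ratios 1 reversed, the 3p to 5p ratio of miR-222 for the transgene, at -0.19 to 0.0096 with 1 library left out. Called miRNAs numbered 109 with DESeq2 and 0 to 48 with 1 library left out (48 without knockout 1) in knockout against control, 2 with DESeq2 in transgene against control, and in knockout against transgene 3 with DESeq2, 0 with only the 6 libraries compared, 0 with the replicate block and 0 to 1 with 1 library left out. With all counted reads below the line the summed arms were 0.0927% with the transgene, 0.0721% in the knockout and 0.110% in controls. These shares are lower because all counted reads outnumber miRNA reads in every library. The cause of the other shifts was not tested. Deviations of same-numbered libraries from their group means had r of -0.302 to 0.102. With 3 libraries a group this cannot tell whether the numbers mark pairs, which the labels do not state. Under the replicate block miR-222-3p in the knockout was -0.96 (adjusted p = 0.240, edgeR). With 61 to 373 reads the 5p arms limit what their ratios can show.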
